A study of Rattus norvegicus with 20 samples.

Results

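Genes for folding, exporting and degrading proteins in the endoplasmic reticulum (ER) were followed through a treatment of INS-1 cells, a rat insulinoma line used as a model of the pancreatic beta cell. The set was given as 39 gene symbols grouped by function, and 38 of them were measured among 18166 genes on the array; Derl2 was not analysed here. They comprised 11 chaperones and cochaperones, 6 disulfide enzymes, 2 prolyl isomerases, 9 degradation factors, 6 parts of the translocon and signal peptidase, and 4 stress sensors. Each gene was read from its brightest probe set that carried 1 symbol.

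There were 20 Affymetrix Rat Gene 2.0 arrays, 5 for each of the title words DMSO, IAPP, C4BPD and C4BP. By the series description, 5 clones of INS-1 cells were kept apart for 10 passages and plated at 100000 per well, and RNA was taken 10 h after the treatment began. The cells received 77 μM islet amyloid polypeptide (IAPP), the peptide that forms islet amyloid, alone or with 0.6 μM C4b-binding protein (C4BP), an inhibitor of complement, and the controls were 1% DMSO, the solvent of IAPP, and C4BP alone. The sample fields state 300 ug/ml for both proteins, a different unit that was not converted here. The titles do not spell out which wells held which protein; the likely reading is C4BP without IAPP for C4BPD and C4BP with IAPP for C4BP. A second field that names the treatment disagreed with most titles: it matched 2 of the 10 titles that read IAPP or DMSO, and 3 of all 20 under that reading. Groups below are those of the titles, and with groups from the second field no member passed in any comparison. All 4 groups share the cell line and the medium, the labels tie no replicate number to a clone, and the p-values measure the spread between these arrays.

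Secretory proteins enter the ER through the Sec61 channel, are folded by chaperones and oxidised by disulfide isomerases, and when misfolded are sent back to the cytosol for destruction by the proteasome. Beta cells, which make large amounts of proinsulin, depend heavily on this machinery. The sensors IRE1 (Ern1), PERK (Eif2ak3) and ATF6 (Atf6) monitor the folding load, and the transcription factors XBP1 and ATF6 act on ER stress elements in the promoters of chaperone genes.

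Of the 10 beta-cell markers listed, 8 were measured. All 8 lay above the median of all probe sets, with mean log2 intensities from 8.8 to 13.52, the brightest being the granule protein Chga. The summed intensity of these 8 ran from 52712 to 55984 in DMSO, 50707 to 52924 in IAPP, 52683 to 56769 in C4BPD and 50199 to 53498 in C4BP, and Mafa and Slc2a2 were lower in both IAPP vs DMSO and C4BP vs DMSO. Glucagon (Gcg), the hormone of alpha cells, was bright in these cells, at a mean log2 intensity of 13.28, and was lower in IAPP vs DMSO. The 4 markers of other islet cells summed to 10383 to 11078 in DMSO, 9582 to 10041 in IAPP, 10351 to 10760 in C4BPD and 10230 to 10818 in C4BP. The 6 acinar and duct markers summed to 1023 to 1109 in DMSO, 944 to 1040 in IAPP, 981 to 1097 in C4BPD and 945 to 1123 in C4BP, with Ctrb1 lower in IAPP vs DMSO and in C4BP vs DMSO. Below the median of all probe sets lay 2 of 4 other islet markers, 4 of 6 acinar and duct markers and 2 of 5 fibroblast markers. Lying above that median therefore does not single out beta-cell markers. The brightest acinar or duct marker had a mean log2 intensity of 8.79 and the brightest fibroblast marker 7.78. All 3 measured blood and endothelial markers lay below the median of all probe sets, and no fibroblast or blood marker passed against DMSO by limma (at an unadjusted p under 0.05, 3 of 5 fibroblast markers in C4BPD and 1 blood marker in C4BP). No intensity was 0, and the part of these shifts in the results was not tested. In such bulk RNA, fewer cells of a type and less RNA per cell cannot be told apart.

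Among the controls, DMSO replicate 3 was the highest DMSO array for 27 of the 38 members and for 10 of the 11 chaperones. DMSO replicate 1 was the highest for 9 of the 38 members. How often each array was the highest over all genes was not counted, so a shift of the whole array cannot be told apart. Replicate 3 was also the highest for 8 of the 11 chaperones in IAPP, 8 in C4BPD and 6 in C4BP. Correlations between arrays over all probe sets ran from 0.985 to 0.996, and no pair was identical. The counts of lower chaperones, lower degradation factors and all lower members against DMSO are also given below without DMSO replicate 3.

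The upstream sequence of 31 members was found in RefSeq promoters (build GRCr8), as the 250 bases before the transcript start on the strand of the gene. They were searched on both strands for CCAAT and CCACG with 9 bases between (the ER stress element, ERSE) and for ATTGG and CCACG with 1 base between (ERSE-II). ERSE occurred in 9 of the 31, or 29.0%, against 22 of 33469 promoters of the same length, or 0.0657%. ERSE-II occurred in 2 members (6.45%) against 14 of all promoters (0.0418%). The 33469 promoters include those of the members. ER stress elements are known from promoters of chaperone genes, so these shares describe the set and are not a test. The 7 sequences below carry an element, which is in capitals, and are shown because 4 of the genes were lower in C4BP vs DMSO (Derl3, Creld2, Dnajc3 and Hspa5) and the other 3 (Hsp90b1, Canx and Herpud1) did not pass in that comparison. Where the capitals start with CGTGG the element lies on the opposite strand. The intervals are chr20:12766466-12766715 (minus strand) for Derl3, chr7:121789134-121789383 (plus) for Creld2, chr15:102432417-102432666 (plus) for Dnajc3, chr3:38452766-38453015 (plus) for Hspa5, chr7:23012294-23012543 (minus) for Hsp90b1, chr10:35157858-35158107 (minus) for Canx and chr19:10614708-10614957 (minus) for Herpud1.
Derl3: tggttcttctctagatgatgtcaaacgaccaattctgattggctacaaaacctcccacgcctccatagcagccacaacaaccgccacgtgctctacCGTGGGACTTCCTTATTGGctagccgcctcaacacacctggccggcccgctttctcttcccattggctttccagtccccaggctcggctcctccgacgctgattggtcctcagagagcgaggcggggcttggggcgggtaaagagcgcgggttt
Creld2: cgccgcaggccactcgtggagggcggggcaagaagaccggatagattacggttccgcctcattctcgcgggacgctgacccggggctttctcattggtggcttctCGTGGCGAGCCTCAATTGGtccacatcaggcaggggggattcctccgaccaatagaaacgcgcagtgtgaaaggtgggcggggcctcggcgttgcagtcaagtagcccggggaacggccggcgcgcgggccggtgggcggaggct
Dnajc3: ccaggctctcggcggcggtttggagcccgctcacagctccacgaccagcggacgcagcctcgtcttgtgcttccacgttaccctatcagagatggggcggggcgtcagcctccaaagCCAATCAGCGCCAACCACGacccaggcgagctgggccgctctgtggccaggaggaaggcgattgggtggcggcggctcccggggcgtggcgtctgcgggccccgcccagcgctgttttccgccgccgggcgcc
Hspa5: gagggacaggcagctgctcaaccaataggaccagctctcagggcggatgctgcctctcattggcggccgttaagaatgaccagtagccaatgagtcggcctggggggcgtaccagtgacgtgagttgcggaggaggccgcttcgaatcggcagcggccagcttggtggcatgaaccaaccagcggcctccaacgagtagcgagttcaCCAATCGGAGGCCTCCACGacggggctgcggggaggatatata
Hsp90b1: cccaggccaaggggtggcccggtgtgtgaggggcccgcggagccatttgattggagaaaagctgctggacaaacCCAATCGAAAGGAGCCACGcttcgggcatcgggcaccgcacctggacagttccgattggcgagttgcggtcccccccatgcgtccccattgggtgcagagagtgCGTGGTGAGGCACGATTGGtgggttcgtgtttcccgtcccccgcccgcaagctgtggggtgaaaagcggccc
Canx: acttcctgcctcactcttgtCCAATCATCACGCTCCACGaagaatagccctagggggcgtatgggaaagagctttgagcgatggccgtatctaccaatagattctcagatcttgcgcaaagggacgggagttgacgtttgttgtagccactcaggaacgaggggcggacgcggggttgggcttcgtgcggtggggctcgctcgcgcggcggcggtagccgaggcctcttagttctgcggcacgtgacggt
Herpud1: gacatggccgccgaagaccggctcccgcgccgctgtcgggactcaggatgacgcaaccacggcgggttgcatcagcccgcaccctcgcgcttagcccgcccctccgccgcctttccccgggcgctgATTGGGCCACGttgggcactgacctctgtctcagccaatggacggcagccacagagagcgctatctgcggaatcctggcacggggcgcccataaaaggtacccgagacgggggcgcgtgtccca

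Within these windows the element began 154 bases before the start in Derl3, 145 in Creld2, 133 in Dnajc3 and 43 in Hspa5. Hsp90b1, which has elements at 176 and 72 bases, and Canx, at 230, hold the same letters. Calr, Ero1b and Xbp1 also held an ERSE, Hyou1 held a pair of ERSE-II matches, and Herpud1 held 1. A match describes the letters and is not a measured binding site, and for genes without a match these letters are only absent from this window.

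Chaperones and cochaperones were the role with the most changes. In C4BP vs DMSO, 8 of 11 fell, with a median log2 difference of -0.35 against 0.005 over all genes. In IAPP vs DMSO 5 of 11 fell (median -0.19), and in C4BPD vs DMSO 4 of 11 fell (median -0.20). Without DMSO replicate 3 these counts were 8, 2 and 2. Over all 38 members, 15 were lower in C4BP vs DMSO, where 3.23% of all genes were lower; 9 in IAPP vs DMSO, where 1.97% were; and 7 in C4BPD vs DMSO, where 0.765% were. The 3 comparisons share the same 5 DMSO arrays. Without DMSO replicate 3, the lower members numbered 15 in C4BP, 3 in IAPP and 3 in C4BPD, and the calls lost by limma were Dnajb9, Dnajc3, Manf, Ero1b, Edem1, Xbp1 and the rise of Ern1 in IAPP (adjusted p 0.06136 to 0.114) and Hspa5, Dnajc3, Pdia4 and Edem1 in C4BPD (0.05455 to 0.1252). Replicate 3 was the highest array for most chaperones in each group, so leaving it out of DMSO alone lowers only the DMSO side. Leaving out the replicate 3 arrays of all 4 groups gave 14 lower members in C4BP, 6 in IAPP and 5 in C4BPD. The share of all genes in that fit was not counted. With all arrays, the only member that rose in any of the 3 comparisons was the sensor Ern1, in IAPP vs DMSO, where 1.41% of all genes were higher. Changes were small on the array's scale, from 10.8% (Xbp1) to 49.4% (Derl3) among the 15 lower members in C4BP vs DMSO.

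**Figure D1:**
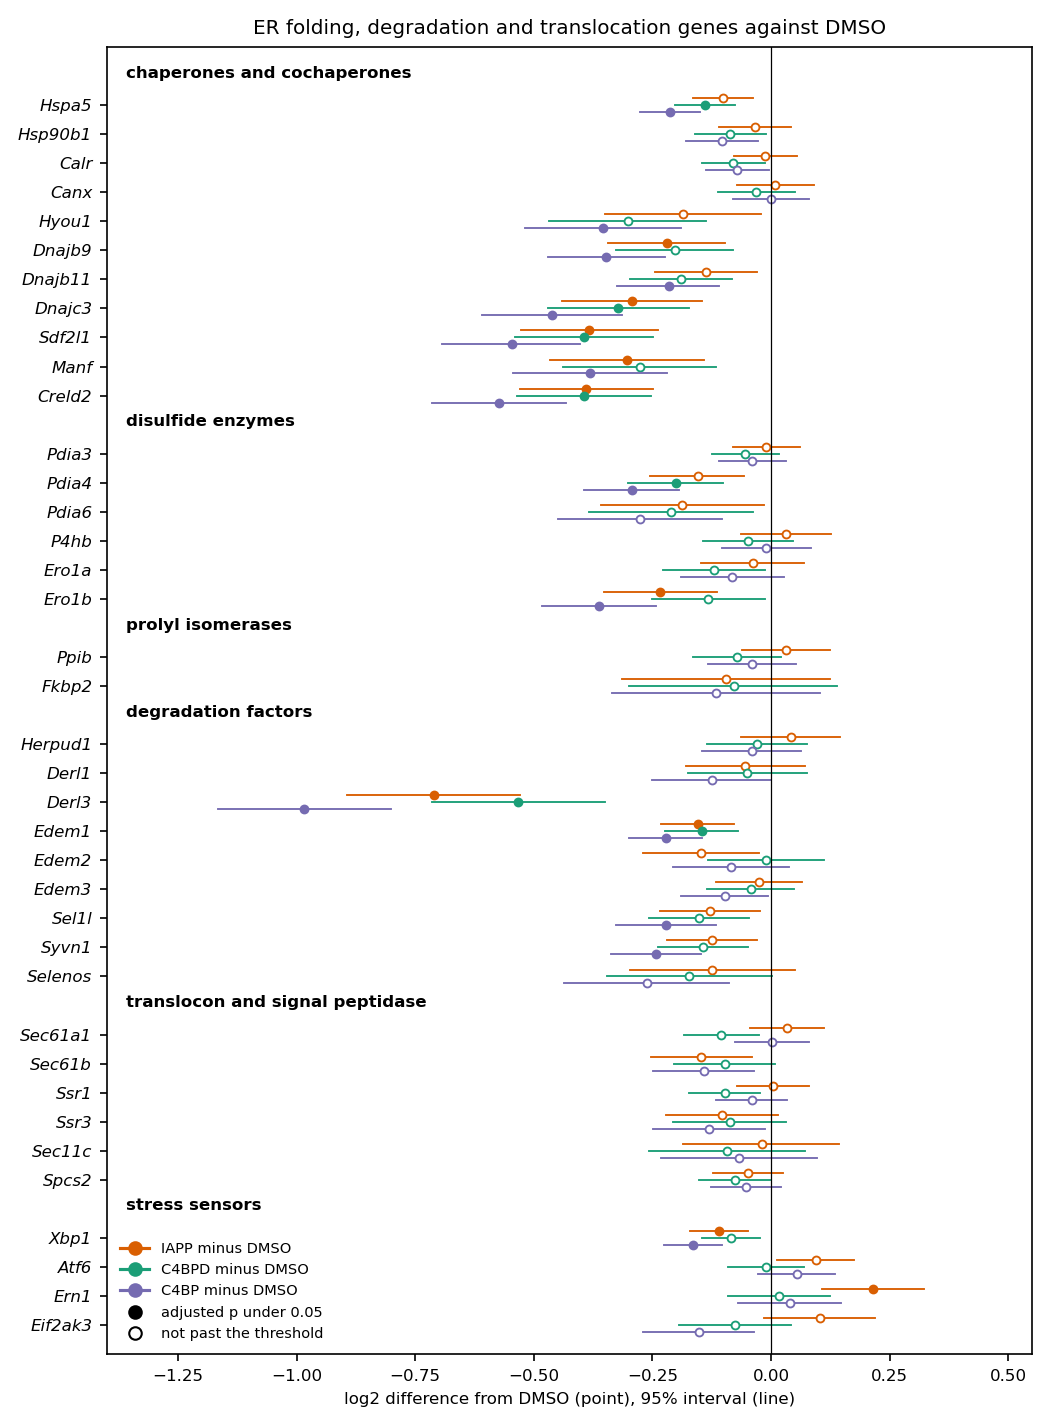
Log2 difference from DMSO of each of the 38 measured members (rows, by role) in IAPP, C4BPD and C4BP (colours); points are the limma estimates, lines their 95% intervals, and filled points have an adjusted p under 0.05. Derl3 lies farthest to the left at -0.98 in C4BP, the chaperones follow, and the translocon and prolyl isomerases hold no filled point.

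Creld2, an ER-resident calcium-binding protein induced by ER stress, had intensities of 2111, 1834, 2395, 2052 and 1864 on DMSO arrays 1 to 5, 1584, 1535, 1670, 1446 and 1567 on IAPP arrays, 1474, 1484, 1743, 1597 and 1487 on C4BPD arrays and 1388, 1356, 1438, 1445 and 1240 on C4BP arrays. Every treated array lay below every DMSO array, and every C4BP array lay below every IAPP and every C4BPD array. The group means were 2051 ± 226 in DMSO, 1560 ± 81.4 in IAPP, 1557 ± 116 in C4BPD and 1374 ± 83 in C4BP (SD, n = 5 each). The fall was 32.8% in C4BP (log2 difference -0.57, SE 0.067, limma adjusted p = 1.002e-05), 23.7% in IAPP (-0.39, adjusted p = 0.001517) and 23.9% in C4BPD (-0.39, adjusted p = 0.002003). The direct differences of C4BP from IAPP (-0.18, adjusted p = 0.3609) and from C4BPD (-0.18, adjusted p = 0.217) did not pass.

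Sdf2l1, a partner of BiP in its cochaperone complex, read 1440, 1389, 1712, 1483 and 1340 in DMSO, 1142, 1131, 1262, 998 and 1109 in IAPP, 1164, 1090, 1168, 1139 and 1027 in C4BPD and 1065, 910, 1082, 1043 and 933 in C4BP. The DMSO values overlapped with none of the treated groups, whereas C4BP overlapped with both IAPP and C4BPD. It fell by 31.6% in C4BP (-0.55, SE 0.07, limma adjusted p = 2.575e-05), by 23.3% in IAPP (-0.38, adjusted p = 0.002412) and by 23.9% in C4BPD (-0.39, adjusted p = 0.00268). The RefSeq window of Sdf2l1 held neither motif.

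Hspa5 encodes BiP, the ER Hsp70 chaperone, and was the brightest member, with 13095, 13200, 13849, 13112 and 13602 in DMSO, 12486, 12416, 12598, 12205 and 12599 in IAPP, 12016, 11837, 12560, 12237 and 12060 in C4BPD and 11542, 11356, 11797, 11720 and 11256 in C4BP. All 15 treated arrays lay below the 5 DMSO arrays, and the 5 C4BP arrays lay below the other 10 treated arrays. Its fall was 13.7% in C4BP (-0.21, SE 0.031, limma adjusted p = 0.0001061) and 9.19% in C4BPD (-0.14, adjusted p = 0.01857), while IAPP, at -0.10, did not pass (adjusted p = 0.08243). The difference of C4BP from IAPP was -0.11 (95% interval -0.175 to -0.048, adjusted p = 0.1256).

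Dnajc3, a BiP cochaperone that also inhibits PERK, read 2026, 1771, 2308, 1852 and 1911 in DMSO, 1711, 1587, 1757, 1488 and 1496 in IAPP, 1589, 1510, 1784, 1515 and 1482 in C4BPD and 1501, 1411, 1525, 1421 and 1289 in C4BP. C4BPD replicate 3, at 1784, was the only treated array above the lowest DMSO array (1771). It fell by 27.4% in C4BP (-0.46, SE 0.071, limma adjusted p = 0.0002314), 18.4% in IAPP (-0.29, adjusted p = 0.02274) and 20.0% in C4BPD (-0.32, adjusted p = 0.0186).

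**Figure D2:**
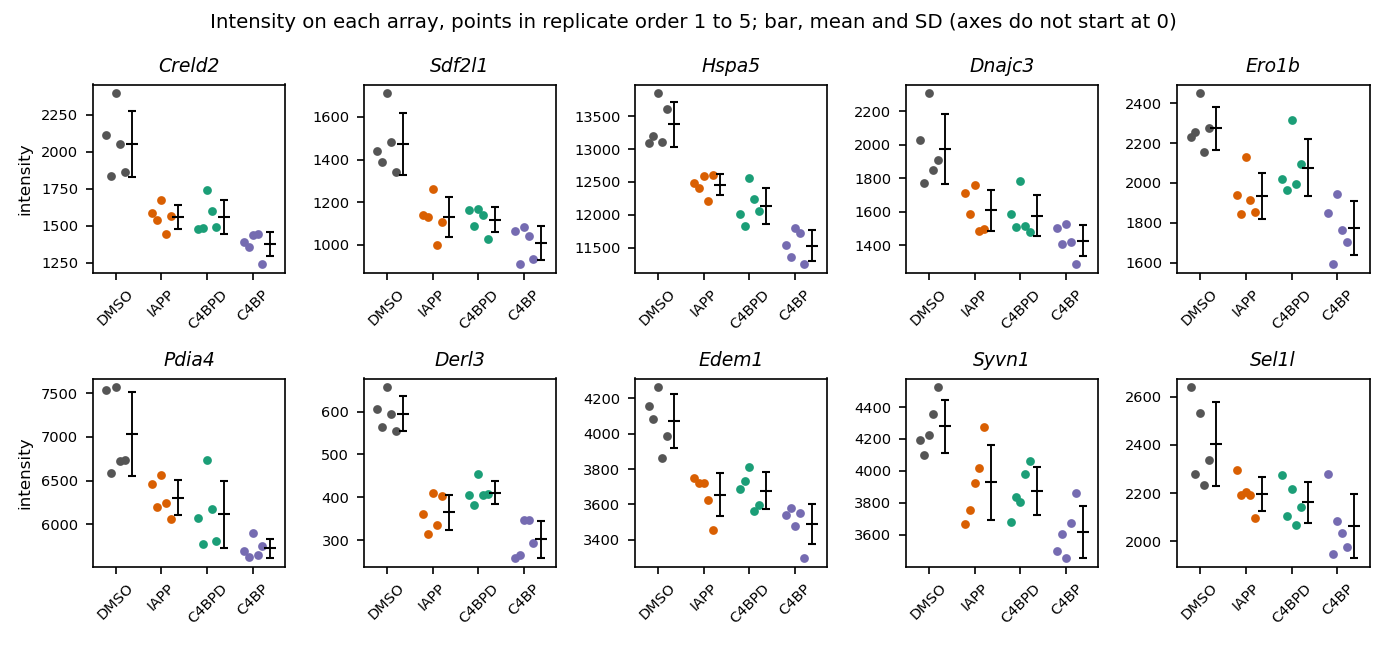
Intensity on each of the 5 arrays of every group (points in replicate order) for the 10 chaperones, disulfide enzymes and degradation factors given array by array, with the group mean and SD beside them; the axes do not start at 0. DMSO replicate 3 is the highest point of most panels. In 9 of the 10 panels the C4BP points lie below all DMSO points, Sel1l being the exception. The 10 genes were taken for the smallest moderated F p-values of their roles on these same arrays, which favours such separation. The share of all genes with such separation was not counted.

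The J-domain protein Dnajb9, which recruits BiP to misfolded clients, had means of 1310 ± 46.6 in DMSO, 1127 ± 89.5 in IAPP, 1139 ± 67.7 in C4BPD and 1032 ± 78.4 in C4BP. It was lower in C4BP (-0.35, limma adjusted p = 0.0006462) and in IAPP (-0.22, adjusted p = 0.04172), and none of the treated groups overlapped with DMSO. Manf, a BiP-binding protein that is also secreted, fell by 0.38 on the log2 scale in C4BP and by 0.30 in IAPP. Hyou1, the exchange factor that reloads BiP with ATP, fell by 0.35 in C4BP (adjusted p = 0.007655) and stood at -0.30 in C4BPD, just short of the threshold (adjusted p = 0.05299). Dnajb11, another J-domain partner of BiP, fell by 0.22 in C4BP, although its C4BP and DMSO arrays overlapped. The ER Hsp90 and the calnexin cycle did not pass: in C4BP Hsp90b1 stood at -0.10, Calr at -0.07 and Canx at -0.00, with adjusted p-values of 0.1097, 0.2638 and 0.9987. For Canx, whose promoter above holds an ERSE, the interval of the difference ran from -0.081 to 0.08.

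Of the disulfide enzymes, 2 of 6 fell in C4BP vs DMSO, Ero1b and Pdia4, with a role median of -0.18. Ero1b, the oxidase of the ER that is abundant in insulin-producing cells, read 2232, 2254, 2451, 2157 and 2278 in DMSO, 1939, 1845, 2128, 1912 and 1852 in IAPP, 2021, 1963, 2314, 1993 and 2097 in C4BPD and 1850, 1593, 1946, 1766 and 1705 in C4BP. C4BPD overlapped with DMSO, while IAPP and C4BP did not. Ero1b fell by 22.2% in C4BP (-0.36, SE 0.057, limma adjusted p = 0.0003041) and by 14.9% in IAPP (-0.23, adjusted p = 0.02429), and C4BPD stood at -0.13 (adjusted p = 0.3471).

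Pdia4, a disulfide isomerase that works with BiP, read 7541, 6592, 7570, 6723 and 6740 in DMSO, 6458, 6205, 6566, 6249 and 6059 in IAPP, 6069, 5782, 6733, 6182 and 5813 in C4BPD and 5696, 5631, 5902, 5649 and 5751 in C4BP. DMSO replicates 1 and 3 lay well above the other DMSO arrays, and C4BPD replicate 3 (6733) lay above the lowest DMSO arrays. It fell by 18.4% in C4BP (-0.29, SE 0.048, limma adjusted p = 0.0003896) and by 13.0% in C4BPD (-0.20, adjusted p = 0.03086), and IAPP stood at -0.16 (adjusted p = 0.09147). Pdia6, a further BiP-associated isomerase, stood at -0.28 in C4BP (adjusted p = 0.05267). Pdia3, the isomerase of the calnexin cycle, P4hb, the classical protein disulfide isomerase, and Ero1a, the second oxidase, stood at -0.04, -0.01 and -0.08.

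Neither prolyl isomerase passed in any comparison by limma, and at an unadjusted p under 0.05 there was 1, Ppib in C4BPD vs IAPP (-0.10). Ppib, cyclophilin B, read 7746, 6745, 7702, 6988 and 7018 in DMSO, 7883, 7521, 7328, 7129 and 7116 in IAPP, 6950, 6648, 7046, 7033 and 6714 in C4BPD and 7450, 6783, 7001, 7110 and 6830 in C4BP, and its C4BP difference of -0.04 had an interval of -0.132 to 0.053. Fkbp2, an ER immunophilin, read 638, 567, 651, 562 and 505 in DMSO, 618, 539, 596, 480 and 506 in IAPP, 663, 525, 555, 519 and 507 in C4BPD and 663, 483, 606, 530 and 435 in C4BP. Its groups overlapped throughout, and its interval in C4BP, -0.335 to 0.104, was wide.

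The degradation factors held the largest fall of the set. They include the derlins and Herpud1 at the membrane channel, the Edem proteins that trim and deliver glycoproteins, and Sel1l and Syvn1, the adaptor and ubiquitin ligase of the retrotranslocation complex, to which Selenos binds. In C4BP vs DMSO 4 of 9 fell, namely Derl3, Edem1, Syvn1 and Sel1l (median -0.22). In IAPP vs DMSO and C4BPD vs DMSO the same pair, Derl3 and Edem1, fell (medians -0.12 and -0.14). Without DMSO replicate 3 these counts were 4 in C4BP, 1 in IAPP and 1 in C4BPD.

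Derl3, a derlin of the retrotranslocation channel, read 606, 563, 657, 595 and 555 in DMSO, 362, 315, 410, 335 and 403 in IAPP, 406, 383, 455, 405 and 407 in C4BPD and 259, 265, 348, 347 and 295 in C4BP. No treated array reached the lowest DMSO array, and no C4BP array reached the lowest C4BPD array, while C4BP and IAPP overlapped. The means were 595 ± 40.6 in DMSO, 365 ± 41.7 in IAPP, 411 ± 26.4 in C4BPD and 303 ± 43.2 in C4BP (SD, n = 5 each). Derl3 fell by 49.4% in C4BP (-0.98, SE 0.087, limma adjusted p = 3.61e-07), by 38.9% in IAPP (-0.71, adjusted p = 3.996e-05) and by 30.9% in C4BPD (-0.53, adjusted p = 0.001238).

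Edem1 read 4156, 4085, 4264, 3865 and 3987 in DMSO, 3748, 3722, 3722, 3624 and 3458 in IAPP, 3689, 3734, 3812, 3561 and 3594 in C4BPD and 3538, 3581, 3477, 3553 and 3297 in C4BP. All treated arrays lay below the DMSO arrays. It fell by 14.3% in C4BP (-0.22, SE 0.037, limma adjusted p = 0.0005528), 10.2% in IAPP (-0.16, adjusted p = 0.02128) and 9.64% in C4BPD (-0.15, adjusted p = 0.04656).

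Syvn1, the ubiquitin ligase, read 4194, 4097, 4224, 4355 and 4525 in DMSO, 3666, 3758, 3927, 4016 and 4275 in IAPP, 3679, 3838, 3808, 3979 and 4061 in C4BPD and 3498, 3607, 3455, 3674 and 3862 in C4BP. Only IAPP overlapped with DMSO, and the fall in C4BP was 15.4% (-0.24, SE 0.045, limma adjusted p = 0.001728). Its adaptor Sel1l read 2641, 2280, 2533, 2234 and 2339 in DMSO, 2295, 2194, 2206, 2192 and 2095 in IAPP, 2277, 2105, 2216, 2066 and 2144 in C4BPD and 2281, 1946, 2082, 2032 and 1975 in C4BP. C4BP replicate 1 (2281) lay within the DMSO range, and the fall was 14.2% (-0.22, SE 0.051, limma adjusted p = 0.009604). Selenos stood at -0.26 in C4BP without passing (adjusted p = 0.07116), and Derl1, Edem2, Edem3 and Herpud1 at -0.12, -0.08, -0.10 and -0.04. For Herpud1, whose promoter above holds an ERSE-II, the interval was -0.146 to 0.064.

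No translocon or signal peptidase gene passed against DMSO by limma (0 of 6 in each comparison), and the medians were -0.03 in IAPP, -0.10 in C4BPD and -0.06 in C4BP. At an unadjusted p under 0.05 there were 1 in IAPP, 3 in C4BPD and 2 in C4BP, against 20, 22 and 23 of all 38 members. Over all genes, the shares in either direction were 12.3% in IAPP, 12.15% in C4BPD and 16.21% in C4BP. In C4BPD all 6 translocon and signal peptidase genes stood below DMSO, and the median of all 38 members was also -0.10. Sec61a1, the channel pore, read 7857, 7556, 7907, 7710 and 7527 in DMSO, 7583, 8378, 8054, 7641 and 7811 in IAPP, 7257, 7277, 7458, 6973 and 6903 in C4BPD and 7607, 8230, 7501, 7597 and 7701 in C4BP. The C4BPD arrays were the lowest, with no overlap with the other 3 groups, and C4BP and DMSO overlapped (0.00, interval -0.076 to 0.081). Sec61b, a small subunit of the channel, read 5085, 4801, 5206, 4763 and 4621 in DMSO, 4708, 4238, 4634, 4311 and 4207 in IAPP, 4663, 4265, 4775, 4688 and 4484 in C4BPD and 4730, 4023, 4543, 4644 and 4263 in C4BP. It stood at -0.15 in IAPP and -0.14 in C4BP (adjusted p = 0.1546 and 0.1252), with overlap in both. Ssr1 and Ssr3 of the translocon-associated complex and Sec11c and Spcs2 of the signal peptidase ranged from -0.13 to -0.04 in C4BP.

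**Figure D3:**
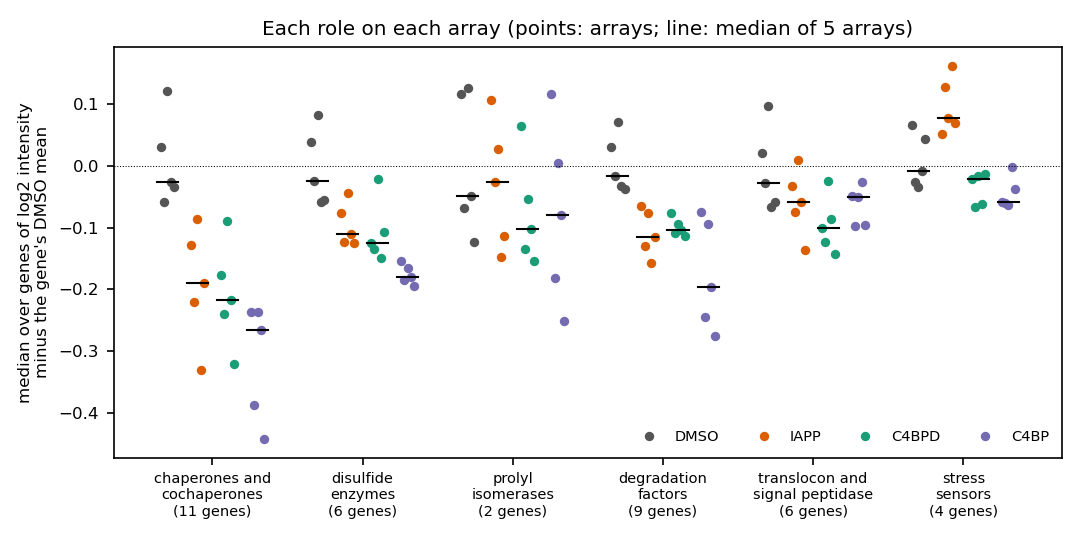
Median over the genes of each role of the log2 intensity minus the DMSO mean of the gene, 1 point per array, with a line at the median of the 5 arrays of a group. Chaperone points run from -0.059 to 0.121 in DMSO and from -0.442 to -0.236 in C4BP, while the prolyl isomerase and translocon points of the groups overlap and the sensor points have their highest median, 0.077, in IAPP.

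Of the 4 stress sensors, Xbp1 fell and Ern1 rose. Xbp1, the transcription factor downstream of IRE1, read 7673, 7362, 7496, 7428 and 7574 in DMSO, 6870, 6937, 7138, 6899 and 6948 in IAPP, 6947, 7011, 7016, 7202 and 7212 in C4BPD and 6876, 6672, 6485, 6755 and 6710 in C4BP. Every treated array lay below every DMSO array, and Xbp1 fell by 10.8% in C4BP (-0.16, SE 0.029, limma adjusted p = 0.001036) and by 7.30% in IAPP (-0.11, adjusted p = 0.04174). The probe set gives 1 value for the gene, and the splice forms that IRE1 creates were not analysed here.

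Ern1, which encodes IRE1 itself, went the other way, with 1088, 979, 873, 997 and 1052 in DMSO, 1171, 1129, 1086, 1190 and 1202 in IAPP, 1015, 1003, 988, 967 and 1065 in C4BPD and 1001, 996, 1030, 986 and 1103 in C4BP. The IAPP arrays were high, although IAPP replicate 3 (1086) lay just under DMSO replicate 1 (1088). Ern1 rose by 16.1% in IAPP (0.21, SE 0.052, limma adjusted p = 0.02231), and stood at 0.02 in C4BPD and 0.04 in C4BP.

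Eif2ak3, which encodes PERK, read 1384, 1411, 1448, 1407 and 1400 in DMSO, 1379, 1572, 1479, 1698 and 1462 in IAPP, 1340, 1242, 1409, 1344 and 1361 in C4BPD and 1191, 1294, 1247, 1442 and 1188 in C4BP. DMSO was tight, and IAPP and C4BP spread to either side of it without passing (0.10 and -0.15, adjusted p = 0.5076 and 0.1404). Atf6 read 2788, 2517, 2481, 2494 and 2738 in DMSO, 2855, 2783, 2758, 2723 and 2760 in IAPP, 2678, 2538, 2562, 2488 and 2643 in C4BPD and 2763, 2625, 2735, 2619 and 2760 in C4BP. Atf6 stood at 0.09 in IAPP, -0.01 in C4BPD and 0.05 in C4BP. It overlapped between DMSO and each treatment and passed in none of the comparisons with DMSO.

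**Figure D4:**
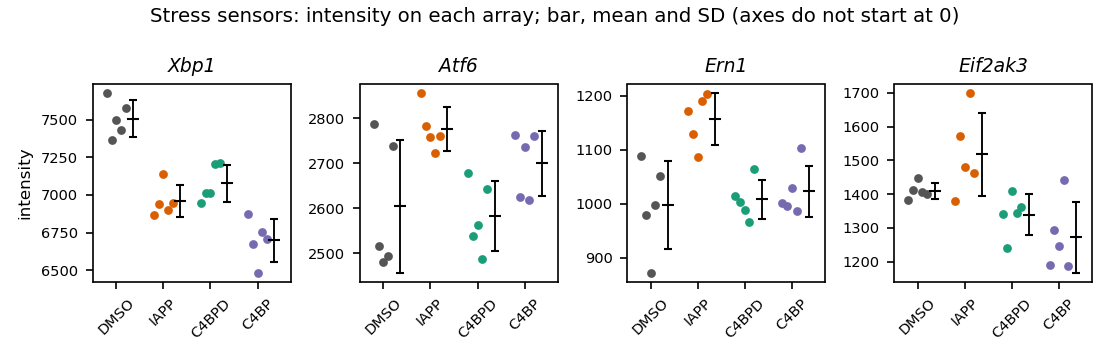
Intensity of the 4 stress sensors on each array (points), with the group mean and SD; the axes do not start at 0. Xbp1 is highest in DMSO, whereas Ern1, Eif2ak3 and Atf6 have their highest means in IAPP, at 1156, 1518 and 2776.

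Call stability differed between the comparisons with DMSO. In C4BP vs DMSO all 15 calls held without any single array (15 to 16 members were lower), and 15 passed without DMSO replicate 3; when the 10 arrays were fitted alone, Dnajb11 (adjusted p = 0.06303) and Sel1l (0.07286) were lost. In IAPP vs DMSO, where 10 members passed, 6 passed without DMSO replicate 1, 5 without DMSO replicate 2, 3 without DMSO replicate 3, 5 without IAPP replicate 2, 3 without IAPP replicate 4 and 3 without IAPP replicate 5, and Sdf2l1, Creld2 and Derl3 passed in every fit that left out an array. In C4BPD vs DMSO, where 7 passed, 3 did without DMSO replicate 3, 3 without C4BPD replicate 2, 4 without C4BPD replicate 4 and 3 without C4BPD replicate 5, and the same trio passed in every such fit. Xbp1 in IAPP vs DMSO lost its call in 15 of the 20 fits that left out an array (adjusted p up to 0.1047), and Edem1 in C4BPD vs DMSO in 17 (up to 0.1271).

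The question of what C4BP adds to IAPP is addressed by C4BP vs IAPP, in which 1 of 38 members, Eif2ak3, was lower (-0.25, SE 0.056, limma adjusted p = 0.03887), where 0.231% of all genes were. Its C4BP values overlapped with IAPP through C4BP replicate 4 (1442) and IAPP replicate 1 (1379). The call was lost without DMSO replicate 2, 3 or 4, IAPP replicate 2, 3, 4 or 5, C4BPD replicate 4 or 5, or C4BP replicate 1, 2, 3 or 5, at adjusted p from 0.05 (rounded, above the threshold) to 0.1199. In this pair of groups 8 of 10 arrays correlated best with their own replicate number. With the replicate number as a block, 8 of the 38 members were lower in C4BP. The share of all genes under that fit is not given here. Without the block, the members other than Eif2ak3 did not pass. Of them, Derl3 stood at -0.27 (interval -0.455 to -0.091), Creld2 at -0.18 (-0.325 to -0.044) and Hspa5 at -0.11 (-0.175 to -0.048), and 12 of the 38 had an unadjusted p under 0.05, all lower in C4BP, against 7.93% of all genes in either direction.

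What IAPP adds in the presence of C4BP is addressed by C4BP vs C4BPD. Derl3 (-0.45, SE 0.087, limma adjusted p = 0.004963) and Ero1b (-0.23, SE 0.057, adjusted p = 0.03292) were lower, 2 of 38, where 1.62% of all genes were, and neither overlapped between the groups. Derl3 kept its call without any single array, whereas Ero1b lost it without C4BPD replicate 3 (0.1038), C4BPD replicate 5 (0.07804), C4BP replicate 2 (0.1114), C4BP replicate 4 (0.06564) or C4BP replicate 5 (0.08751).

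Between the single treatments, in C4BPD vs IAPP, 2 of 38 members were lower in C4BPD, where 1.82% of all genes were: Ern1 (-0.20, SE 0.052, limma adjusted p = 0.02732) and Sec61a1 (-0.14, SE 0.038, adjusted p = 0.03465), and neither overlapped. The chaperones did not pass, with a median of -0.04; Creld2, at -0.00, had an interval of -0.145 to 0.136, and Sdf2l1, at -0.01, of -0.157 to 0.134. Same-numbered arrays deviated together in this pair of groups, and with the replicate block 7 members passed, where 10.5% of all genes did in either direction: Ern1, Sec61a1, Eif2ak3 (-0.18), Atf6 (-0.10), Ssr1 (-0.10) and P4hb (-0.08) were lower and Edem2 (0.14) was higher. Ern1 lost its call without IAPP replicate 1, 4 or 5 or C4BPD replicate 2, 3 or 4 (adjusted p 0.05642 to 0.07182), and Sec61a1 without IAPP replicate 2, 3 or 5 or C4BPD replicate 2, 4 or 5 (0.05108 to 0.1148).

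On the log2 scale, the fall in C4BP exceeded each single fall for all 15 members lower in C4BP vs DMSO and was smaller than their sum for all 15, at 65.7% to 98.9% of it (median 78.6%). These 15 were taken for their fall in C4BP, which favours that order. Over all 38 members, the C4BP estimate lay below both single estimates for 24, a share not counted over all genes. It lay above their sum for 32 of the 38, against 9908 of all 18166 genes. Derl1 (-0.12 against a sum of -0.10) and Edem3 (-0.10 against -0.07) were among those below the sum. Edem2 (-0.08 against -0.15 in IAPP) and Sec61b (-0.14 against -0.15 in IAPP) were among those short of a single estimate. These quantities share the DMSO arrays and are a description. The departure from the sum was tested by the interaction, which subtracts the effect of IAPP without C4BP from the difference C4BP vs C4BPD, and in which 0 of 38 members passed by limma, where 0.0495% of all genes did. At an unadjusted p under 0.05 there were 5, against 3.79% of all genes: Derl3 (0.26), Sdf2l1 (0.23) and Creld2 (0.21) above zero, and Ern1 (-0.19) and Eif2ak3 (-0.18) below. The 95% intervals of the interaction reached 0.09 to 0.31 to either side of the estimate, with a median of 0.15.

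Members with an element and members without can be set side by side, with no test. Of the 11 measured members with an ERSE or ERSE-II, 7 were lower in C4BP vs DMSO (median -0.21), and of the 19 with a RefSeq window and no match, 7 were (median -0.14). Of the largest falls, Derl3, Creld2 and Dnajc3 hold an element and Sdf2l1, which ranks between Creld2 and Dnajc3, holds none; Hsp90b1, Canx, Calr and Herpud1 hold an element and did not pass.

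**Figure D5:**
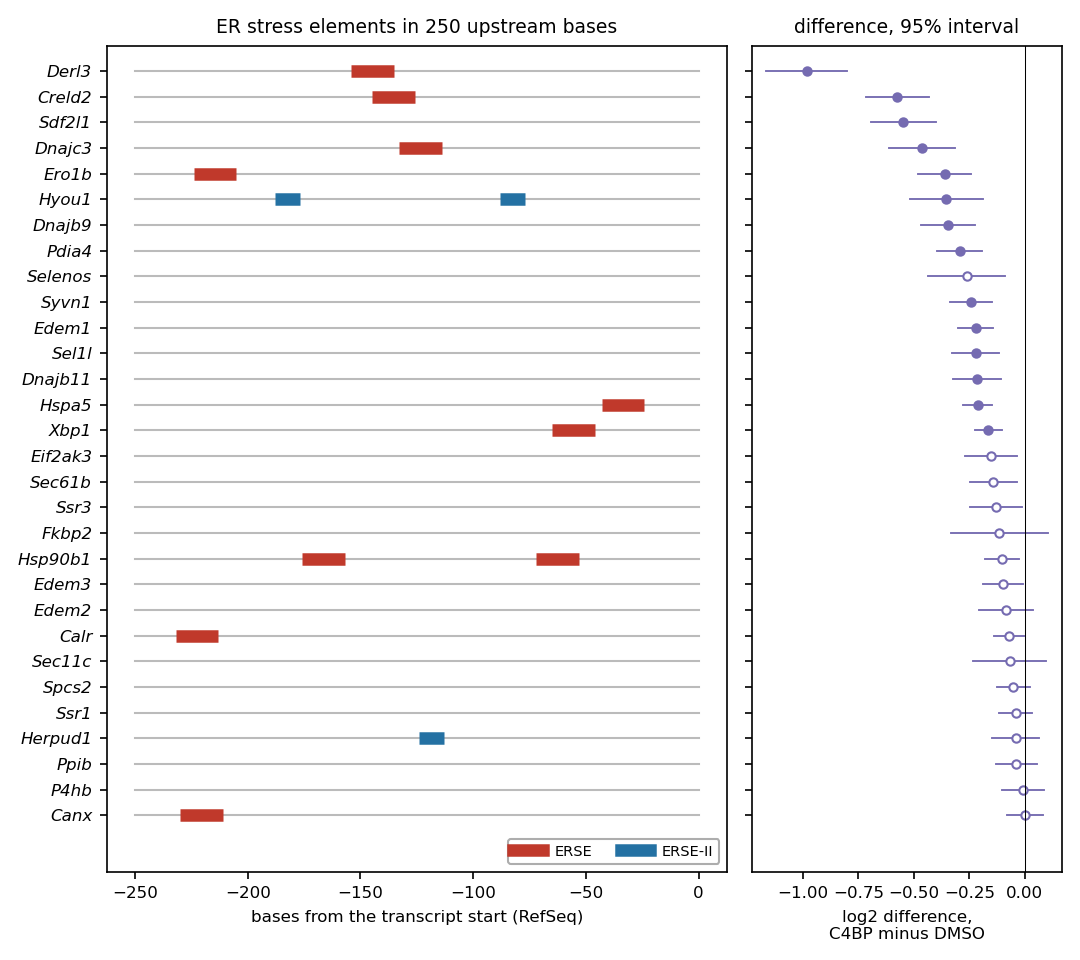
Left, positions of ERSE (red) and ERSE-II (blue) in the 250 bases before the RefSeq transcript start of the 30 measured members with a window, in bases from the start; right, log2 difference of C4BP from DMSO with its 95% interval, filled where the adjusted p is under 0.05. Elements occur from the top of the order (Derl3, -0.98) to the bottom (Canx, -0.00).

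Other genes of the ER machinery were counted by function, and counts of 1 of 28 or 1 of 19 lower in C4BP vs DMSO are near the 3.23% of all genes that were. Of 28 further folding enzymes and lectins measured, 1 was lower in C4BP vs DMSO, Txndc11, a thioredoxin-domain protein of the ER (-0.22, limma adjusted p = 0.0005755; list median -0.06), and it was lower in IAPP (-0.15) and C4BPD (-0.20) as well. None of 22 further degradation factors passed against DMSO by limma in any treatment (3, 1 and 2 at an unadjusted p under 0.05 in IAPP, C4BPD and C4BP), and 1 of 28 translocation and glycosylation genes did, Magt1 of the oligosaccharyltransferase, in C4BP (-0.15). Of 19 genes for transport from the ER to the Golgi, 1 was lower in C4BP, the vesicle-coat GTPase Sar1a (-0.19). Among 16 further stress regulators, Atf4, the transcription factor translated when PERK is active, was higher in all 3 treatments (0.29 in IAPP, 0.30 in C4BPD and 0.30 in C4BP), and Bhlha15, a regulator of secretory cells, was lower in C4BPD (-0.34) and C4BP (-0.45). The genes named next were picked after their values were seen. Fkbp11, an ER prolyl isomerase, was lower in C4BPD vs DMSO (-0.27), and Ddit3, the factor CHOP induced by ATF4, was higher in IAPP vs DMSO (0.46, limma adjusted p = 0.001183).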

How the data were processed

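The authors deposited 1 table of intensities per probe set, on a linear scale from 4.73 to 18573.71, which they had normalized and summarized. Per the submitters' processing notes they used Affymetrix Expression Console. No version, algorithm or annotation is given in the sources used here, so the normalization stays unknown. Array medians ran from 170.01 to 182.36, no detection p-values were used, and the number of arrays limits the precision.

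Of 36685 probe sets, 190 were controls and stayed out. The platform annotation gave 1 symbol to 18511 probe sets, several to 575 and none to 17409; each gene took its brightest probe set with 1 symbol (291 genes had a choice), which gave 18166 genes. The log2 of the intensity was fitted in limma 3.58.1 (R 4.3.3, lmFit and eBayes) with 1 mean per title group over all 20 arrays (16 residual degrees of freedom). Tests were two-sided, with Benjamini-Hochberg adjustment over all genes and a threshold of 0.05, and the procedure was tested on simulated data. Percent changes are ratios of geometric means. Figures used Python 3.11.15 and matplotlib 3.10.9.

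The members and lists were chosen with earlier results of these data known. Values of every array are given for the members with the smallest moderated F p-value of each role (4 among chaperones and degradation factors, 2 in the other roles) and for the 4 sensors; of each other list, up to 4 genes past the threshold in C4BP vs DMSO are named. Alternatives were other scalings, no dim genes, an offset of 32, averaged probe sets, the replicate number as a block, the compared groups alone, array weights, leaving out arrays, and groups from the treatment field.

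Whether the replicate numbers pair the arrays was read from the data, by correlating deviations from the group means over genes. Every one of the 5 pairs of C4BPD and IAPP arrays correlated above 0.1 (0.152 to 0.305), and the blocked count is printed there. Each of the other 5 comparisons had 1 or more pairs at or below 0.1, which does not exclude pairing. In C4BP vs IAPP, 4 of 5 pairs lay above 0.1 (median of the 5 pairs 0.318), and its blocked count is printed as well.

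Promoters came from RefSeq (GRCr8) and matched 31 of the 39 symbols; protein sequences were not analysed here.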

Additional observations from a re-analysis of the deposited data

Results flagged for a closer look

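In 7 of the 152 groups of 5 arrays (38 members in 4 groups), 1 array lay far from the other 4, with a gap to the nearest array above 0.71 of the whole range of the group; chance alone marks about 1 in 20 groups. Among chaperones, DMSO replicate 3 was the highest array for Hsp90b1 (gap 0.834 of the range), C4BPD replicate 3 the highest for Dnajb11 (0.86) and C4BP replicate 2 the lowest for Calr (0.714). Among degradation factors, C4BPD replicate 1 was the highest for Edem2 (0.895) and DMSO replicate 1 for Edem3 (0.76). In the translocon, C4BP replicate 2 was the highest for Sec61a1 (0.716) and C4BPD replicate 3 for Ssr1 (0.794).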

How the results depend on the processing

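Against main counts of 10, 7, 15, 1, 2, 2 and 0 members past the threshold (IAPP vs DMSO, C4BPD vs DMSO, C4BP vs DMSO, C4BP vs IAPP, C4BP vs C4BPD, C4BPD vs IAPP and the interaction), the replicate block gave 18, 15, 20, 8, 6, 7 and 0. In the first 5 comparisons, 5, 6, 5, 8 and 3 of 10 arrays correlated best with their own number. Whether the numbers pair those arrays was not settled. The compared groups alone gave 4, 3, 13, 0, 1 and 1 (not run for the interaction, which uses all groups), and array weights gave 11, 10, 15, 0, 1, 4 and 0. Median-centred arrays and leaving out dim genes each gave 11 in C4BPD vs DMSO. Without single arrays the counts were 3 to 10, 3 to 8, 15 to 16, 0 to 1, 1 to 2, 0 to 3 and 0, and without all arrays of a number 3 to 6, 3 to 5, 12 to 16, 0, 0 to 2, 0 to 1 and 0. Of 8740 member values under these alternatives, 8455 kept direction and side of the threshold, 200 lost and 85 gained a call, and 0 reversed. The cause of these shifts was not tested.

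With groups from the treatment field, 0 members passed in each comparison, and 32 called values changed sign. In IAPP vs DMSO these were Dnajb9 (0.085), Dnajc3 (0.017), Sdf2l1 (0.065), Manf (0.022), Creld2 (0.039), Ero1b (0.064), Derl3 (0.248), Edem1 (0.020) and Xbp1 (0.039). In C4BPD vs DMSO they were Hspa5 (0.029), Sdf2l1 (0.001) and Derl3 (0.149). In C4BP vs DMSO all 15 did: Hspa5 (0.080), Hyou1 (0.090), Dnajb9 (0.135), Dnajb11 (0.019), Dnajc3 (0.075), Sdf2l1 (0.139), Manf (0.032), Creld2 (0.121), Pdia4 (0.051), Ero1b (0.059), Derl3 (0.266), Edem1 (0.035), Sel1l (0.029), Syvn1 (0.093) and Xbp1 (0.051). The rest were Eif2ak3 in C4BP vs IAPP (0.018), Ero1b (0.040) and Derl3 (0.117) in C4BP vs C4BPD, and Sec61a1 (0.006) and Ern1 (0.040) in C4BPD vs IAPP.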

Other observations

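Between the single treatments, genes of the neighbouring lists that passed were picked after their values were seen. In C4BPD vs IAPP, Kdelr3, a receptor that returns ER residents from the Golgi, was lower in C4BPD (-0.50, limma adjusted p = 0.004767), as was Sec31a of the vesicle coat that leaves the ER (-0.20, adjusted p = 0.04604), 2 of 19 transport genes. Ddit3 was lower in C4BPD (-0.45, adjusted p = 0.0008405), 1 of 16 stress regulators. Of 28 folding enzymes, Erp29 was lower (-0.15, adjusted p = 0.02685), and of 22 degradation factors the ubiquitin-conjugating enzyme Ube2g2 was lower (-0.17, adjusted p = 0.01909) and Fam8a1, a partner of the Syvn1 complex, was higher (0.13, adjusted p = 0.02239). No gene of these lists passed in C4BP vs IAPP, in C4BP vs C4BPD or in the interaction by limma, and at an unadjusted p under 0.05 each list held 0 to 3 genes in each of these comparisons.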
